A study of Homo sapiens with 6 samples.

Results

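The genes described here are the AP-1 subunits FOS, FOSB, FOSL1, FOSL2, JUN, JUNB and JUND, the early response genes EGR1 and IER2, and MYC. These 10 genes were chosen by name, for what they are known to do, but with earlier results of these data known. They come from the 60666 genes listed outside alternative and patch contigs (67130 with them). Expression was measured by RNA-seq in 6 samples of hTERT-RPE1-TOShOFD1 cells, a human retinal pigment epithelial line immortalized with telomerase that carries a lentivirus with a short hairpin RNA (shRNA) against OFD1. The hairpin is under Tet-On control, so that doxycycline switches it on. OFD1 is a protein of centrioles and centriolar satellites, and the study asked how cycling cells respond to its loss. Control samples (n = 3) were labelled as control at 72 h, with no doxycycline dose listed. OFD1-depleted samples (n = 3) received 200 ng/mL doxycycline for 72 h. Both groups were the same line, labelled wild type in genotype, with the same construct, and grew in the same serum-containing medium. No sample with doxycycline and without the hairpin was analysed here, so the effects of doxycycline and of OFD1 depletion cannot be told apart.

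AP-1 is a dimer of basic leucine zipper proteins, in which a FOS or JUN protein pairs with a JUN protein and binds a short palindrome in enhancers and promoters. Several of these genes are early response genes, which are switched on within minutes of serum or growth factor addition without new protein synthesis, through ERK and other MAP kinases that act on the serum response factor SRF and its ternary complex partners. Their mRNAs are typically short-lived, and in constantly growing cultures some remain at a steady level set by ongoing growth factor signals. MYC is a later member of the same growth response and, as a dimer with MAX, drives ribosome production and metabolism.

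The promoter sequences next to EGR1 and JUND are shown. Among the members matched, they were the ones with an exact match to the letters searched for a serum or cyclic AMP response element. The 250 bases before the start site come from RefSeq on GRCh38.p14, with motifs in capitals, for EGR1 on the + strand at chr5:138465229-138465478 and for JUND on the - strand at chr19:18281623-18281872.
EGR1: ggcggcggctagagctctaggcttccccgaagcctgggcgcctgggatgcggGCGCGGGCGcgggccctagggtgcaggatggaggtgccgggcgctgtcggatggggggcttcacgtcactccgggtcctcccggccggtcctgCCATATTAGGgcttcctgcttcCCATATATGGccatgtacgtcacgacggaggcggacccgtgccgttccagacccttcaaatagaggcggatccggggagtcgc
JUND: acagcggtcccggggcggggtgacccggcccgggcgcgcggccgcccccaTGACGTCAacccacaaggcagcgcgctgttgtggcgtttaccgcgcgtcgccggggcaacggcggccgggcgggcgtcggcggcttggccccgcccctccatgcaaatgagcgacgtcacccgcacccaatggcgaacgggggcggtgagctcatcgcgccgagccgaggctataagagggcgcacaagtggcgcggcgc

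RefSeq promoter sequence was matched for 8 of the 10 members and not for FOSL1 and MYC. Both strands of the 300 bases around each start site (250 before it, 50 after it) were searched for 5 motifs. EGR1, a zinc finger transcription factor, held 2 CArG boxes, the binding letters of SRF, as CCATATTAGG starting 105 bases and CCATATATGG starting 83 bases before its start site. A CArG box was found in 1.29% of 35116 promoters of that length. EGR1 also held 1 match to the site its own protein family binds (GCGNGGGCG, in 9.43% of promoters), as GCGCGGGCG starting 198 bases before the start site. JUND held a cyclic AMP response element (TGACGTCA, in 1.85% of promoters) starting 200 bases before its start site. FOSL2 held an AP-1 site (TGANTCA, in 7.71% of promoters), as TGACTCA, starting at base 5 counted from its RefSeq start site. The bases before that start site end at 28392857, while the gene as listed below starts at 28392448. The site thus lies inside the gene as listed. None of the 8 promoters held the E-box CACGTG that MYC dimers bind, which 7.26% of promoters held. FOS, FOSB, JUN, JUNB and IER2 held no exact match to any of the 5 motifs in this window. This says nothing of sites outside it, or of sites in it with variant letters, which were not searched for.

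OFD1 itself had 3.34, 3.62 and 3.44 FPKM in control against 0.795, 0.763 and 1.43 FPKM after depletion. FPKM is the number of fragments per kilobase of transcript, scaled to the mapped fragments of the sample, so it compares genes per length. Tests were run on log2(FPKM + 0.1) for 12025 genes whose mean over the samples reached 1 FPKM, a scale that understates the change of low genes. Of these, 1429 genes (11.9%) were lower and 610 (5.07%) higher at an adjusted p-value under 0.05. When all samples were scaled to the same total (TPM) the numbers were 1988 lower and 268 higher, and the median change of all genes moved from -0.03 to -0.18 on the log2 scale. Summed FPKM was 408302 to 414547 in control and 433262 to 493510 in OFD1-depleted samples, and mitochondrially encoded genes held 8.66% to 13.8% and 15.6% to 19.3% of it. The labels call the tissue retina and speak of removed retinas, but none of 6 photoreceptor markers reached a mean of 1 FPKM. Of the 6, 3 were at 0 in all samples, CRX and RCVRN among them. The sum of the 6 was 0.117 to 0.244 FPKM in control and 0.293 to 0.502 FPKM after depletion. Of 13 pigment epithelium markers 4 reached a mean of 1 FPKM (KRT8, KRT18, MITF and OTX2). TTR was at 0 in all samples, and TYR, TYRP1, RLBP1 and LRAT were at or near 0. RPE65 had 0 to 0.0338 FPKM in control and 0.143 to 0.209 FPKM after depletion. PMEL had 0.258 to 0.627 FPKM over the samples. SERPINF1 had 0.640 to 1.11 FPKM in control and 0.09 to 0.65 FPKM after depletion. BEST1 had 4.33 FPKM in OFD1-depleted replicate 2 and at most 0.0475 FPKM in any other sample. The summed level of the 13 was 263 to 280 FPKM in control against 304 to 421 FPKM after depletion, nearly all from the keratins. Of 5 fibroblast markers 4 reached a mean of 1 FPKM, and their sum of 51.1 to 64.3 FPKM in control against 51.8 to 59.7 FPKM after depletion held changes in both directions. COL1A1 rose from 8.68 ± 1.17 to 24.4 ± 3.51 FPKM (adjusted p = 9.37e-05 from limma, means with SDs of 3 samples) and DCN from 0.869 ± 0.0997 to 1.88 ± 0.128 FPKM (0.015), while THY1 fell from 29.0 ± 2.1 to 14.3 ± 2.71 FPKM (0.000898). The part of the mitochondrial share and of these markers in the results was not tested, except that EGR1, FOSL1 and JUN, described next, passed the threshold also when samples were scaled to the same total without mitochondrial genes. In such bulk samples, fewer cells that express a gene and less RNA per cell cannot be told apart.

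Of the 10 members, 8 reached the mean of 1 FPKM needed for the test, and FOS and FOSB did not. OFD1-depleted cells had less EGR1, FOSL1 and JUN mRNA, at 37.5%, 60.6% and 74.1% of the control mean. No member was called higher. Thus 3 of the 8 members tested were called lower, where 11.9% of all genes were, and 0 of 8 higher, where 5.07% were. At an unadjusted p-value under 0.05 the numbers were 4 lower and 0 higher (19.1% and 11.5% of all genes). The OFD1-depleted values lay entirely below the control values in 4 of the 8 members, where 22.3% of all genes tested did, and entirely above them in 1, where 13.8% did. The median log2 fold change of the 8 was -0.23, beside -0.03 for all genes.

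**Figure D1:**
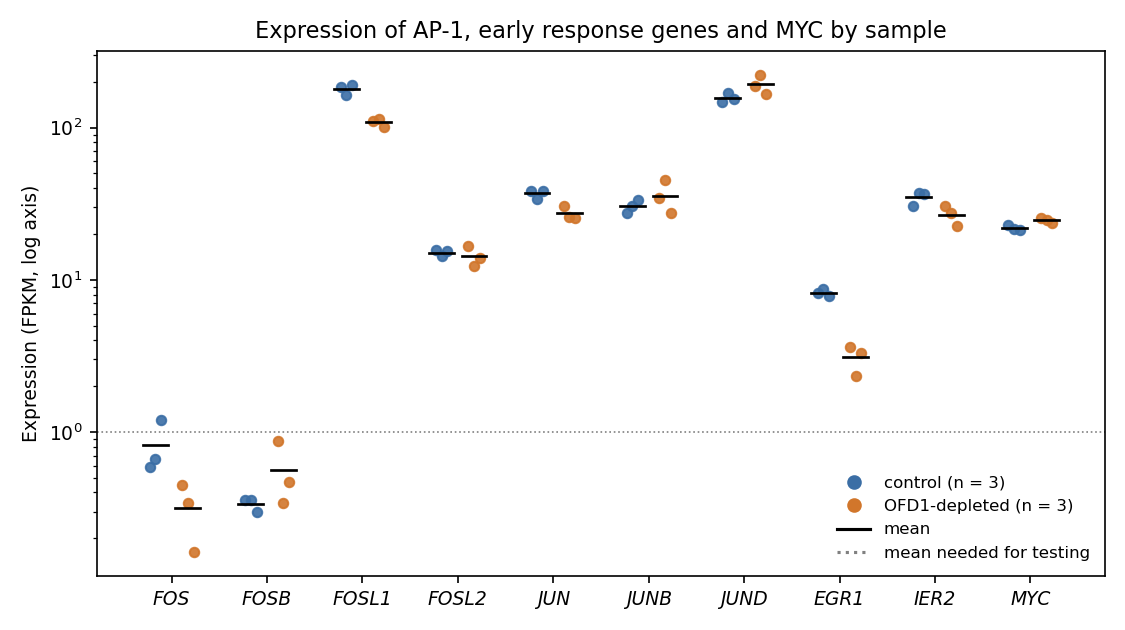
Expression of the 10 members in every sample, in FPKM on a log axis, with control samples in blue, OFD1-depleted samples in orange, black bars at the group means and a dotted line at the mean of 1 FPKM needed for testing. FOSL1 and JUND are the most abundant in both groups, FOS and FOSB lie near or under the dotted line, and EGR1 is the tested member with the widest gap, from between 7.88 and 8.66 FPKM to between 2.34 and 3.62 FPKM.

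Among the FOS proteins, which cannot pair with each other and need a JUN partner, FOSL1 (FRA-1) carried nearly all of the mRNA. FOSL1 (ENSG00000175592, GRCh38 chromosome 11 from 65892049 to 65900573, - strand) encodes a subunit without the strong activation domain of FOS and is typical of migrating and mesenchymal cells. It had 185.1, 165 and 189.5 FPKM in control against 111.3, 114.6 and 100.9 FPKM after depletion. The lowest control value was thus well above the highest value after depletion. Its log2 fold change was -0.72 (SE 0.126, 95% interval -1.0 to -0.45, adjusted p = 0.00265), which is 1.65-fold lower. By mean level over all samples FOSL1 stood at rank 408 of the 12025 genes, and 8.83% of the genes tested had a log2 fold change at or below its own. It stayed past the threshold in each of 17 alternative analyses.

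FOS (ENSG00000170345, chromosome 14 from 75278826 to 75282230, + strand), the classical early response subunit, was scarce. It had 0.590, 0.668 and 1.21 FPKM in control against 0.448, 0.341 and 0.163 FPKM after depletion. The groups did not overlap, with control replicate 3 the highest and OFD1-depleted replicate 3 the lowest. The OFD1-depleted mean was 38.6% of control and the difference on the log2(FPKM + 0.1) scale was -1.15, but the exact permutation test could give no p-value below 0.1, which it reached. Of the 5655 genes with a mean between 0.1 and 1 FPKM, 10.8% were lower without overlap. By the depth estimate these values rest on about 48, 53 and 101 fragments in control and 38, 32 and 14 in OFD1-depleted samples. When low genes were tested too, the adjusted p-value of FOS was 0.257, and a pseudocount of 1 gave a difference of -0.46.

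FOSB (ENSG00000125740, chromosome 19 from 45467995 to 45475179, + strand), a close relative of FOS, had 0.358, 0.359 and 0.299 FPKM in control against 0.868, 0.344 and 0.471 FPKM after depletion. The groups overlapped (exact permutation test, two-sided, p = 0.3). All 7185 bases of FOSB lie opposite ERCC1, a DNA repair gene at 34.4 to 65.3 FPKM, and the strand setting of the counting is not given in the sources used here, so the FOSB values are uncertain.

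FOSL2 (FRA-2, ENSG00000075426, chromosome 2 from 28392448 to 28417317, + strand), the other subunit without a strong activation domain, had 15.7, 14.3 and 15.4 FPKM in control against 16.7, 12.4 and 13.8 FPKM after depletion. The groups overlapped, with OFD1-depleted replicate 1 above every control sample. Its log2 fold change was -0.09 (95% interval -0.40 to 0.23, adjusted p = 0.723) and turned to 0.01 without OFD1-depleted replicate 2. FOSL2 therefore did not differ detectably, within an interval that leaves room for changes of either sign.

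JUN (ENSG00000177606, chromosome 1 from 58776845 to 58784048, - strand), the JUN protein best known as a target of JNK, had 38.3, 34.2 and 38.4 FPKM in control against 30.7, 25.9 and 25.6 FPKM after depletion. All OFD1-depleted values lay below all control values. The log2 fold change was -0.43 (SE 0.129, 95% interval -0.72 to -0.15, adjusted p = 0.0406). This call was close to the threshold and held in 11 of 17 alternatives. It was lost without control replicate 1 (adjusted p = 0.174), control replicate 2 (0.0554), control replicate 3 (0.158) or OFD1-depleted replicate 3 (0.11), with no filter on low genes (0.0826) and without the variance trend (0.0719). The direction was the same in all 17 alternatives, with log2 fold changes from -0.58 to -0.38.

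JUNB and JUND did not pass the threshold in any of the 17 alternatives. JUND (ENSG00000130522, chromosome 19 from 18279694 to 18281622, - strand), known as the JUN protein of resting cells, had 147.8, 169.3 and 154.8 FPKM in control against 187.5, 223.3 and 167.6 FPKM after depletion. The highest values were in OFD1-depleted replicates 1 and 2, while replicate 3 lay among the controls. The log2 fold change was 0.29 (95% interval -0.03 to 0.60, adjusted p = 0.201). JUNB (ENSG00000171223, chromosome 19 from 12791486 to 12793315, + strand), which can restrain JUN activity, had 27.6, 30.5 and 33.3 FPKM in control. In OFD1-depleted samples it had 34.6, 45.1 and 27.5 FPKM, which are both the highest and the lowest values of the 6 samples. Its log2 fold change was 0.20 (95% interval -0.18 to 0.59, adjusted p = 0.470). HOOK2, a gene at 3.33 to 4.42 FPKM and thus below JUNB in every sample, covers all 1830 bases of JUNB on the opposite strand. This leaves the JUNB values uncertain too, though the overlapping gene is here the lower of the pair, unlike ERCC1 beside FOSB.

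**Figure D2:**
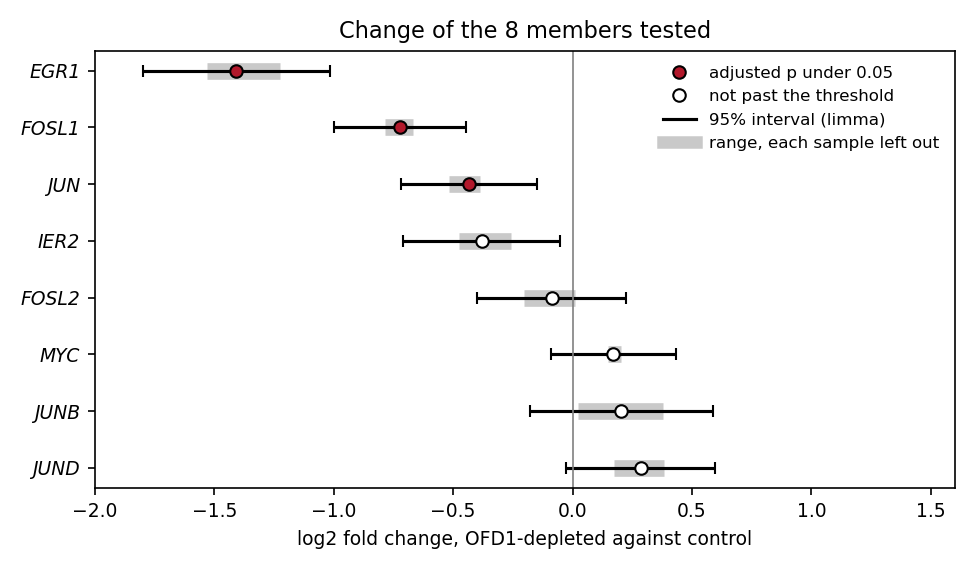
Log2 fold change of the 8 tested members, OFD1-depleted against control, with 95% intervals from limma as black lines, the range when each sample is left out as grey bars, and red points for adjusted p-values under 0.05. EGR1, FOSL1 and JUN lie left of 0 with red points, the interval of IER2 also lies left of 0 without passing the adjusted threshold, and the other 4 intervals span 0.

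The FOS and JUN families were also summed, since their proteins pair with each other. The summed FOS family was 196.1 ± 13.9 FPKM in control against 124.1 ± 7.64 FPKM after depletion (SD, n = 3 each). The summed JUN family was 224.7 ± 10.3 and 255.9 ± 36.8 FPKM. The ratio of the FOS sum to the JUN sum was 0.944, 0.770 and 0.912 in control and 0.512, 0.434 and 0.522 in OFD1-depleted samples, without overlap. FOSL1 made up 91.7% ± 0.162 of the FOS sum in control and 87.8% ± 1.88 in OFD1-depleted samples. The share of FOSL2 was 7.71% ± 0.242 and 11.5% ± 1.67, and FOS and FOSB were each under 1% in every sample. Within the JUN sum, JUN made up 16.5% ± 1.7 in control and 10.9% ± 1.81 in OFD1-depleted samples. JUND made up 69.9% ± 2.12 and 75.3% ± 1.0, and JUNB 13.6% ± 0.988 and 13.8% ± 1.43. The shares of JUN and of JUND did not overlap between the groups, and those of JUNB did. These sums and shares follow from the member values above and were not tested.

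**Figure D3:**
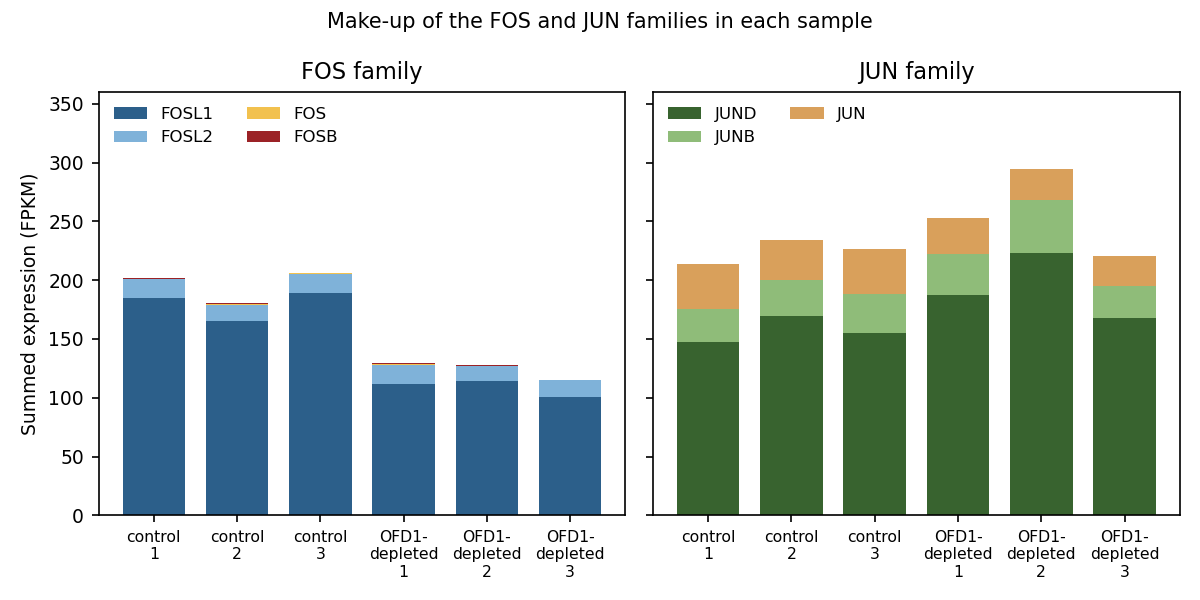
Summed FPKM of the FOS family (left) and the JUN family (right) in each sample, stacked by gene. The FOS bars are mostly FOSL1 and range from 180.3 to 206.4 FPKM in control and from 115.3 to 129.3 FPKM in OFD1-depleted samples, while the JUN bars range from 213.7 to 234 FPKM and from 220.8 to 294.2 FPKM.

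EGR1 (ENSG00000120738, chromosome 5 from 138465479 to 138469303, + strand), whose promoter with its CArG boxes is printed above, is induced by ERK through SRF. It had 8.14, 8.66 and 7.88 FPKM in control against 3.62, 2.34 and 3.30 FPKM after depletion. All OFD1-depleted values lay below all control values, with OFD1-depleted replicate 2 the lowest. The log2 fold change was -1.41 (SE 0.179, 95% interval -1.80 to -1.02, adjusted p = 0.000348), or 2.67-fold lower. Of the genes tested, 1.7% had a log2 fold change at or below it. The call held in all 17 alternatives, with log2 fold changes from -1.55 to -1.19. Its 3 paralogs were near 0 in control. EGR2 had a mean of 0.0878 FPKM, EGR4 0.0135 FPKM and EGR3 0.229 FPKM. EGR3 had 1.21 ± 0.911 FPKM in OFD1-depleted samples, with groups that overlapped.

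IER2 (ENSG00000160888, chromosome 19 from 13150411 to 13154911, + strand), a small nuclear protein gene induced early by serum, had 30.43, 37.3 and 36.8 FPKM in control against 30.42, 27.6 and 22.4 FPKM after depletion. The lowest control value and the highest OFD1-depleted value were thus nearly the same, and the groups only just did not overlap. The log2 fold change was -0.38 (95% interval -0.71 to -0.05, adjusted p = 0.107). It passed the threshold only with TPM scaling, at -0.53 and an adjusted p-value of 0.0263.

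MYC, on chromosome 8 (ENSG00000136997), had 22.8, 21.5 and 21.1 FPKM in control against 25.3, 24.9 and 23.5 FPKM after depletion. All OFD1-depleted values lay above all control values, but the means differed by little, at 112.6% of control. The log2 fold change was 0.17 (95% interval -0.09 to 0.43, adjusted p = 0.370) and ranged from 0.02 to 0.22 over the alternatives, never past the threshold. The interval does not reach a fall of the size seen for FOSL1 or EGR1.

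By mean level in control cells the order was FOSL1, JUND, JUN, IER2, JUNB, MYC, FOSL2, EGR1, FOS and FOSB. FOSL1 and JUND overlapped between samples, as did JUN with IER2 and IER2 with JUNB, and the other neighbours did not. In OFD1-depleted cells the order was JUND, FOSL1, JUNB, JUN, IER2, MYC, FOSL2, EGR1, FOSB and FOS. JUND then lay above FOSL1 in every sample, and JUNB and JUN, JUN and IER2, IER2 and MYC, and FOSB and FOS overlapped.

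The 10 members differ in transcript structure, as read from the canonical GENCODE version 44 transcripts. JUN, JUNB and JUND have a single exon, as do 1.7% of the tested genes with such a transcript, while FOS, FOSB, FOSL1 and FOSL2 have 4 exons, MYC 3, and EGR1 and IER2 2. The AU-rich pentamer ATTTA, found in the 3′ UTRs of unstable mRNAs, occurred 9 times in FOSL2, 6 in MYC, 5 in FOS, 3 in FOSB and in JUN, 2 in JUNB, 1 time each in FOSL1, JUND and EGR1, and not in IER2. Among 10629 tested genes the median was 2, and 74% had at least 1. The longer element TTATTTATT was in the 3′ UTRs of FOS and FOSL2 and in 9.56% of the tested genes. The 3 members called lower thus had between 1 and 3 pentamers.

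Around these members, 159 further genes in 7 lists of the pathway were examined, of which 134 were tested. They had 11 lower calls (8.21%) and 12 higher calls (8.96%), beside 11.9% and 5.07% of all genes, and a median log2 fold change of -0.01. Values with ± are means with SDs over the 3 samples of a group. These numbers moved with single samples. The lower calls were 5 without control replicate 1, 7 without control replicate 2, 5 without control replicate 3 and 6 without OFD1-depleted replicate 3. The higher calls were 4 without control replicate 1, 7 without control replicate 3, 5 without OFD1-depleted replicate 1, 21 without OFD1-depleted replicate 2 and 7 without OFD1-depleted replicate 3. Of the list genes named in what follows with their spread, BATF3, DUSP5, ETV4, MLXIP, MXI1, NR4A1, SPRY1, SRF and SRM were not called when no filter on low genes was used (adjusted p of 0.0509 for NR4A1 to 0.178 for MLXIP). DUSP5, MXI1, SPRY1, SRF and SRM were not called with TPM scaling (0.0791 for MXI1 to 0.165 for SPRY1). With the same total without mitochondrial genes, DUSP5 (0.0958), SPRY1 (0.105), MXI1 (0.0549) and MLXIP (0.0668) were not called. Without the variance trend DUSP5 (0.0674), SRM (0.0627) and MLXIP (0.072) were not, and MLXIP also not with median-of-ratios (0.051) or quantile scaling (0.0607).

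Upstream of the members, 26 of 29 kinases and SRF factors were tested. Of these, 1 was called higher (3.85%) and 0 lower (limma), beside 5.07% and 11.9% of all genes. At an unadjusted p-value under 0.05, 2 were lower and 1 higher, beside 19.1% and 11.5% of all genes. The gene called was SRF, whose CArG box binding was described above, at 17.4 ± 1.98 FPKM in control against 25 ± 1.73 FPKM after depletion (log2 fold change 0.52, adjusted p = 0.0217). This call was lost without control replicate 1 (0.0832), control replicate 2 (0.0777) or OFD1-depleted replicate 1 (0.07). The SRF partner ELK1 had a log2 fold change of 0.01, and MAPK3, which encodes an ERK kinase, -0.08, with adjusted p-values of 0.984 and 0.739. Of the 14 feedback and output genes of ERK, 1 fell (7.14%) and 2 rose (14.3%), beside 11.9% and 5.07% of all genes. Their median log2 fold change was -0.16. Of the 14, 10 had a log2 fold change below 0 and 4 above. At an unadjusted p-value under 0.05 (limma), 3 were lower and 3 higher, beside 19.1% and 11.5% of all genes. ETV4, an ETS factor, fell from 4.98 ± 0.388 to 2.98 ± 0.605 FPKM (-0.74, adjusted p = 0.0179). DUSP5, a nuclear phosphatase for ERK, rose from 17.3 ± 1.19 to 24.6 ± 4.02 FPKM (0.49, adjusted p = 0.0374), and the signalling inhibitor SPRY1 from 2.35 ± 0.208 to 3.49 ± 0.150 FPKM (0.56, adjusted p = 0.0463). Each of the 3 calls was lost when single samples were left out, with adjusted p-values up to 0.073, 0.14 and 0.188. ETV4 lost it without any 1 of the control replicates or OFD1-depleted replicate 3, and DUSP5 and SPRY1 without any sample but OFD1-depleted replicate 2.

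The other early response genes moved in both directions, with more higher calls than lower ones. Of 32 tested of 40, 3 fell (9.38%) and 6 rose (18.8%), beside 11.9% and 5.07% of all genes. At an unadjusted p-value under 0.05 (limma), 4 were lower and 12 higher, beside 19.1% and 11.5% of all genes. The median log2 fold change was 0.15. KLF2, a Krüppel-like factor, fell from 44.3 ± 4.96 to 17.6 ± 0.973 FPKM (-1.32, adjusted p = 7.09e-05) and its relative KLF6 from 22.6 ± 2.23 to 11.3 ± 1.64 FPKM (-1.0, adjusted p = 0.000873). NR4A1, an orphan nuclear receptor induced by serum, rose from 2.56 ± 0.512 to 5.90 ± 1.38 FPKM (1.17, adjusted p = 0.00351). These 3 calls held whichever sample was left out. The other genes past the threshold were named after their values were seen. Lower was CCN1, a matrix-associated signalling protein (-0.44, adjusted p from limma 0.0423). Higher were the antiproliferative gene BTG2 (0.97, 0.0121), the stress-induced bZIP factor ATF3 (0.87, 0.0411) and the transcriptional coregulator CITED2 (0.69, 0.00408). IER3 (0.62, 0.00563) and the kinase gene SGK1 (0.49, 0.027) were higher too. The list had 2 lower and 3 higher calls with no filter on low genes, and 5 and 13 with array weights. The number of higher calls was 3 without control replicate 1 and 9 without OFD1-depleted replicate 2, while the 3 lower calls became 4 without OFD1-depleted replicate 2 and 2 without any other sample. Of the other bZIP partners, 6 of 11 were tested. Among them 1 fell (16.7%) and 0 rose (limma), beside 11.9% and 5.07% of all genes. At an unadjusted p-value under 0.05, 1 was lower and 2 higher, beside 19.1% and 11.5% of all genes. The gene that fell was BATF3, which pairs with JUN proteins, from 3.72 ± 0.492 to 1.98 ± 0.482 FPKM (-0.90, adjusted p = 0.0173). Its call was lost without control replicate 1 (0.0645), control replicate 3 (0.0863) or OFD1-depleted replicate 3 (0.0594).

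Of 18 genes known as AP-1 targets, 12 were tested. In OFD1-depleted cells 4 were lower (33.3%) and 1 higher (8.33%), beside 11.9% and 5.07% of all genes tested. At an unadjusted p-value under 0.05 (limma), 6 were lower and 1 higher, beside 19.1% and 11.5% of all genes. The median log2 fold change was -0.28. The list was chosen with earlier results of these data known. The urokinase receptor gene PLAUR fell from 73.7 ± 5.44 to 40.9 ± 7.27 FPKM (-0.86, adjusted p = 0.00224), and the urokinase gene PLAU from 88.1 ± 6.25 to 55.3 ± 3.75 FPKM (-0.67, adjusted p = 0.00365). The other genes that fell, named after their values were seen, were the hyaluronan receptor CD44 (-0.52, adjusted p = 0.0214) and cyclin D1, CCND1 (-0.47, 0.029). The cytokine gene IL6 went the other way, from 2.81, 3.06 and 4.05 FPKM in control to 10.5, 11.7 and 11.1 FPKM in OFD1-depleted samples (log2 fold change 1.73, adjusted p = 5.18e-05). PLAUR, PLAU and IL6 kept their calls whichever sample was left out, and the number of lower calls was 2 without control replicate 1 and 2 without control replicate 3. The matrix protease genes MMP3 and MMP10 were listed at 0 in all samples, and MMP1, MMP9 and MMP13 had means under 0.1 FPKM in both groups.

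**Figure D4:**
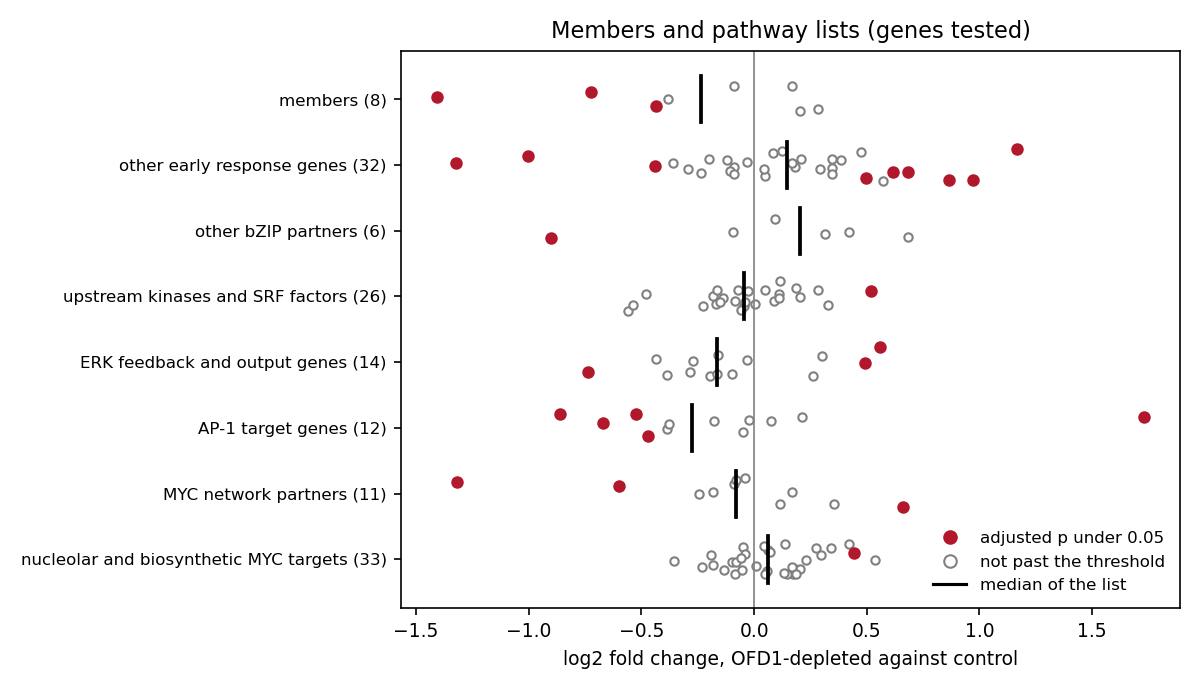
Log2 fold change, OFD1-depleted against control, of the tested members and of the tested genes in the 7 pathway lists, with the number tested in parentheses, red points for adjusted p-values under 0.05 and a black bar at each median. The members and the AP-1 targets have medians of -0.23 and -0.28, the other early response genes 0.15, and the nucleolar and biosynthetic MYC targets 0.06 with 1 red point of 33.

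Around MYC, 11 of 14 network partners were tested. Among them 2 fell (18.2%) and 1 rose (9.09%), beside 11.9% and 5.07% of all genes. MXD3, a MAX partner that represses MYC sites, fell from 14.3 ± 3.44 to 5.70 ± 1.59 FPKM (-1.32, adjusted p = 0.00179), and this call held whichever sample was left out. MLXIP, a glucose-sensing factor of the extended network, fell from 9.57 ± 1.18 to 6.36 ± 1.5 FPKM (-0.60, adjusted p = 0.0440). MXI1, another repressing MAX partner, rose from 4.19 ± 0.204 to 6.74 ± 1.05 FPKM (0.66, adjusted p = 0.0153). The calls of MLXIP and MXI1 did not hold. MLXIP lost its call without any sample but OFD1-depleted replicate 1 (adjusted p up to 0.179), and MXI1 without control replicate 1 or 3 or OFD1-depleted replicate 1 or 3 (up to 0.0744). MAX itself had a log2 fold change of 0.36 (adjusted p = 0.0844). All 33 nucleolar and biosynthetic targets of MYC were tested, with a median of 0.06. Of these, 1 rose (3.03%) and 0 fell (limma), beside 5.07% and 11.9% of all genes. At an unadjusted p-value under 0.05, 0 were lower and 4 higher, beside 19.1% and 11.5% of all genes. The gene called was SRM, spermidine synthase, from 109.7 ± 5.88 to 149.7 ± 15.2 FPKM (0.44, adjusted p = 0.0361), and its call was lost when any sample but OFD1-depleted replicate 2 was left out, with adjusted p-values up to 0.156. Of the 33, 21 had a log2 fold change above 0 and 12 below. The other genes with an unadjusted p-value under 0.05, named after their values were seen, were the ribosome assembly genes NPM1 (log2 fold change 0.42, adjusted p = 0.0885), NOP2 (0.54, 0.0718) and RRP12 (0.34, 0.131). Each had OFD1-depleted values entirely above the control values, as did 13.8% of all genes tested.

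The genes whose log2 values followed a member most closely over the 6 samples were found by Pearson correlation, as a description of 6 points that fall into 2 groups. For EGR1 they were SCARB2 (r = 0.9995), TMEM200A (0.9994) and CDC25A (0.9992). For FOS they were TRIM28 (0.9904), SFXN5 (0.9891) and TYK2 (0.9876), whose levels differed by less between the groups, as with TRIM28 at 138 and 121 FPKM. For MYC they were RAB7A (0.9938), AC092747.4 (0.9903) and MAX (0.9877).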

How the data were processed

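RNA was measured in 6 samples of one line, 3 per group by their labels. The authors aligned paired-end reads from directional libraries to the Ensembl human reference (GRCh38, version 94) with HISAT2 (2.0.5 in the submitters' processing notes) and summarized them with StringTie, and the deposited values are FPKM per gene. No counts were used, so depth could only be estimated. Steps among low single-exon values put it at 37800000 to 44500000 fragments, an approximate figure because 23.3% to 26% of those values lay within 0.05 of a whole step.

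Genes were compared with limma 3.58.1 in R 4.3.3 (variance trend, two-sided, Benjamini-Hochberg over all 12025 genes tested) and single members by exact permutation, where 3 samples against 3 give no p-value under 0.1. Figures, motifs and sums used Python 3.11.15. P-values measure the spread between samples of one line, called biological replicates in the study. The scripts were tested on simulated data. The members and lists were chosen with earlier results of these data known. Named were all members, up to 3 genes per list with the smallest p-values among genes past the threshold without overlap between groups, the 3 genes most correlated with FOS, EGR1 and MYC, and OFD1. Other list and marker genes in the text were chosen after their values were seen. The 17 alternatives changed the pseudocount, filter, scaling, variance model, replicate block or samples. No 2 samples were identical. Protein sequences were not used here. Values of some single list genes are not reported here.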

Additional observations from a re-analysis of the deposited data

How the results depend on the processing

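EGR1 and FOSL1 were called lower in all 17 alternatives, JUN in 11, and no member was called higher in any. Over these alternatives the members called lower numbered 2 to 4, with IER2 the addition under TPM scaling. With no filter, 823 genes were lower and 260 higher, and 5 and 4 of the pathway genes. TPM scaling gave 268 genes higher, and 19 pathway genes lower and 5 higher. Quantile normalization gave 1093 genes higher and 21 pathway genes higher. Median-of-ratios scaling gave 19 pathway genes higher and the same total without mitochondrial genes 7. Array weights gave 2263 genes lower and 1693 higher, and 21 and 29 pathway genes. Leaving out each sample in turn gave 867 to 1741 genes lower, 244 to 1077 higher, 5 to 13 pathway genes lower, 4 to 21 higher and 2 to 3 members lower. The cause of these shifts was not tested. FOSL2 turned from -0.09 to 0.01 without OFD1-depleted replicate 2, within a range of -0.21 to 0.01 when each sample was left out. Of 403 alternative log2 fold changes of the tested members, the genes named by rule and OFD1, 337 kept their direction and side of the threshold. Same-numbered replicates deviated together only weakly (correlations of 0.058, 0.048 and 0.011), so the numbers were not taken as pairs. A fit with a block for the replicate number gave 1534 genes lower and 762 higher, with 3 members lower and 0 higher, and JUN kept its call (adjusted p = 0.0415). Under this replicate block SPRY1 lost its call (adjusted p = 0.0725). The few fragments behind FOS and FOSB limit what can be said of them.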
